A study of Mus musculus with 16 samples.

Results

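The genes described here are 9 regulators of the PI3K-AKT-mTOR pathway, Pik3cd, Akt1, Akt2, Mtor, Rptor, Rictor, Tsc1, Tsc2 and Ddit4, chosen by gene symbol. They are 9 of 56691 gene entries in a table of read counts for 637 single germinal center (GC) B cells of the mouse. The cells came from the light zone (LZ), the part of the GC where B cells take up antigen and compete for T cell help, and were prepared by SMART-Seq2, a full-length single-cell method without molecular identifiers. They were sorted from lymph nodes of 8 male hosts primed with ovalbumin (OVA) and boosted with NP-OVA, NP being a small hapten. Every host had received B1-8hi BTKC481S and B1-8hi BTKWT B cells together. B1-8hi is a knock-in heavy chain that gives a high-affinity NP receptor, BTK is the kinase downstream of the B cell receptor, and the BTKC481S form resists the BTK inhibitor acalabrutinib. The hosts A7, A8, A10, A11 and A12 were given acalabrutinib by repeated oral gavage, and the hosts V5, V7 and V9 were given vehicle alone. The 16 samples are the 2 genotypes of each host, but the cell names carry the host and the plate and no genotype, so both genotypes of a host were pooled and the host was the replicate. A direct effect on the drug-sensitive cells is therefore mixed with cells that resist the drug.

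PI3K makes a membrane lipid that recruits AKT, and AKT phosphorylates and inhibits FOXO transcription factors and the TSC complex. The TSC complex restrains the small GTPase RHEB, and RHEB activates the kinase mTOR on the lysosome when amino acids are present. In B cells the pathway is driven by the B cell receptor and CD40, and it governs growth, metabolism and FOXO1-dependent genes of the GC. Most of this control acts on proteins and lipids, so transcript levels describe the parts list of the pathway and not its activity.

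Cells held between 132412 and 1825420 counts (median 789357), the hosts contributed 45 to 130 cells each, and the median depth was 788352 counts in acalabrutinib-treated and 796728 in vehicle-treated hosts. Markers of LZ GC B cells and of other cells were read beside the label. All 6 GC B cell markers and 4 of 4 LZ markers had a mean of at least 1 CPM (counts per 1e+06 counts of the host or cell), as did 4 of 5 B cell markers, Ms4a1 being listed at 0 in every cell. Summed LZ markers ranged from 2123 to 3045 CPM in acalabrutinib-treated and from 2189 to 2819 CPM in vehicle-treated hosts. Markers of the dark zone, the other part of the GC, also reached 1 CPM (3 of 3). Their sums ranged from 236 to 371 CPM in acalabrutinib-treated and from 377 to 380 CPM in vehicle-treated hosts. So did 18 of 30 genes of other tissues reach 1 CPM, so this bound alone does not tell cell types apart. Of the T cell markers, 5 of 8 reached a mean of 1 CPM, led by Lck at 270 CPM, and the summed list ranged from 165 to 395 CPM in acalabrutinib-treated and from 256 to 353 CPM in vehicle-treated hosts. Of the defining T cell genes, Cd3e was at 0 in 7 of the 8 hosts and Trac at 0 in 1, with up to 7.86 CPM of Trac and 7.68 CPM of Cd3g in A10 and 12.9 CPM of Cd4 in A12. Their part in the results was not tested. Macrophage markers summed to between 22.1 and 36.3 CPM over all hosts, with Itgam at 0 in every cell. Plasma cell markers summed to between 893 and 1522 CPM, led by Jchain at 880 CPM.

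Pik3cd, the catalytic subunit of PI3K delta and a leukocyte form, had the highest level of the 9 genes per kilobase of exons (43.7 CPM per kb). The summed counts of each host gave 279 CPM in A7, 322 in A8, 276 in A10, 277 in A11 and 270 in A12. In the vehicle-treated hosts they gave 247 CPM in V5, 239 in V7 and 276 in V9. The 8 hosts lay close together, with a coefficient of variation of 9.10%, and the treatment groups overlapped. At least 1 count was found in 394 of 637 cells (61.9%, exact 95% interval 58.0 to 65.6%). Pik3cg, another PI3K catalytic subunit that is not among the 9 genes, ranged from 293 CPM in A12 to 476 CPM in V7. In CPM it lay above Pik3cd in every host.

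The AKT kinases differed in their spread between hosts, with coefficients of variation of 14.2% for Akt2 and 34.1% for Akt1. Akt2 was measured at 145, 124, 123, 103 and 117 CPM in A7, A8, A10, A11 and A12, and at 146, 101 and 140 CPM in V5, V7 and V9. Akt1 was measured at 34.8, 38.5, 37.2, 47.1 and 77.1 CPM in the same acalabrutinib-treated hosts and at 49.5, 31.6 and 67.0 CPM in V5, V7 and V9. A12 and V9 were the highest hosts for Akt1, 1 from each treatment, and the groups overlapped for both genes. Counts of Akt1 came from few cells: the tenth of cells with the most counts held 89.3% of its counts, against 60.4% for Akt2 and 42.4% for Pik3cd.

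Mtor, the kinase at the core of both mTOR complexes, varied most between hosts among the 9 genes, with a coefficient of variation of 61.8%. It was measured at 32.1 CPM in A7, 56.3 in A8, 151.6 in A10, 71.7 in A11 and 54.0 in A12. In the vehicle-treated hosts it was measured at 10.6 CPM in V5, 94.3 in V7 and 85.0 in V9. V5 was the lowest and A10 the highest host, a ratio of 14.3. In V5 only 2 of 71 cells reached 10 CPM (2.82%, exact 95% interval 0.343 to 9.81%), against 13.3 to 26.9% of cells in the other 7 hosts. The V5 plates gave 0.211 and 20.8 CPM, and the latter lay above plate 2 of A8, at 16.8 CPM. Plate 3 of A8 gave 159 CPM. Among the 5 hosts with several plates, plates differed by over 3-fold in 2 hosts each for Akt1, Mtor, Tsc1 and Tsc2, in 5 for Ddit4 and in 0 for Pik3cd, Akt2, Rptor and Rictor. For Tsc2, plate 3 of A8 was at 0.116 CPM and plate 2 at 171 CPM. The part of cell sampling in these differences was not tested.

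The scaffold of mTOR complex 1, Rptor, averaged 144 ± 22.1 CPM (SD, n = 8 hosts; range 121 to 187), and the scaffold of mTOR complex 2, Rictor, averaged 77.3 ± 13.2 CPM (range 51.5 to 92.8). The subunits of the TSC complex, which shuts off RHEB, were measured at 74.3 ± 24.6 CPM for Tsc1 (range 41.3 to 125) and 115 ± 28.1 CPM for Tsc2 (range 85.7 to 171). Highest and lowest hosts were not the same from gene to gene. V7 was lowest for Pik3cd, Akt1, Akt2, Rictor and Tsc2 and highest for Rptor, while V5 was highest for Akt2 and Tsc2.

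Ddit4, also called REDD1, is a stress-induced inhibitor of mTOR complex 1 that acts through the TSC complex, and it was close to the limit of detection. It was measured at 4.0, 3.07, 1.14, 5.27 and 3.63 CPM in A7, A8, A10, A11 and A12, and at 4.14, 1.68 and 1.06 CPM in V5, V7 and V9. Only 46 cells held a count (7.22%, exact 95% interval 5.34 to 9.52%). Both treatment groups held hosts near 1 CPM and hosts at or above 4 CPM. The 5.27 CPM of A11 came from 2 of its 114 cells (1.75%), the lowest share of any host. Its plates gave 0 and 9.0 CPM.

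**Figure D1:**
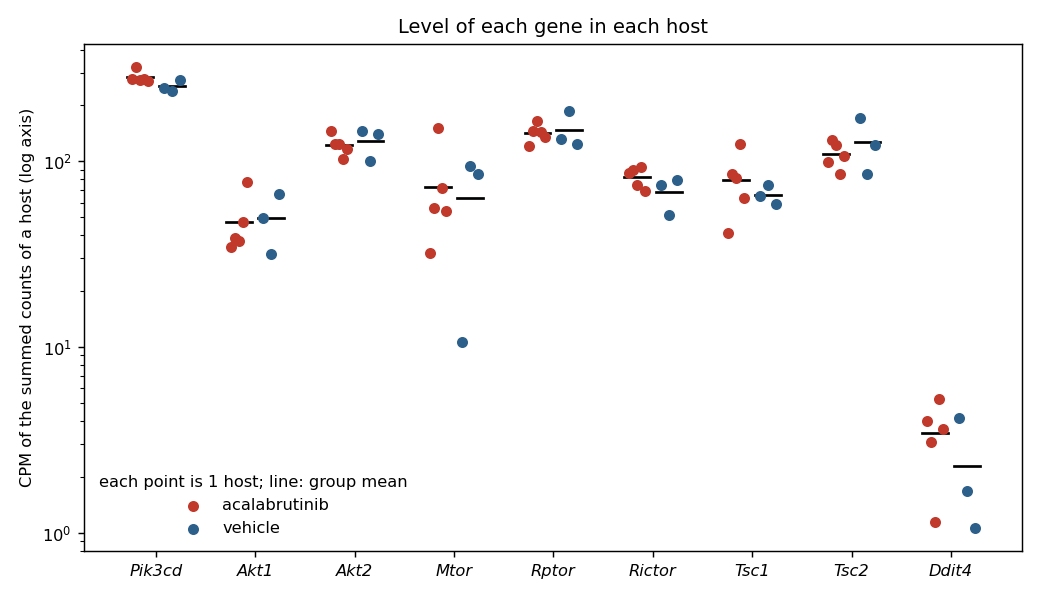
Level of each of the 9 genes (x axis) as CPM of the summed counts of a host (y axis, log axis), with 1 point per host, red for the 5 acalabrutinib-treated and blue for the 3 vehicle-treated hosts, and a line at each group mean. Pik3cd sits between 239 and 322 CPM in every host, Mtor spreads from 10.6 to 152 CPM, and Ddit4 lies between 1.06 and 5.27 CPM.

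Levels were compared between genes per kilobase, first of merged exons (GENCODE M21 gene models, build GRCm38). Pik3cd stood highest at 43.7 ± 3.97 CPM per kb (SD, n = 8), and its lowest host (38.2) lay above the highest host of Akt2 (20.4). Akt2 followed at 17.5 ± 2.49 CPM per kb, then Tsc2 at 12 ± 2.92, Akt1 at 11.7 ± 3.98 and Rptor at 10.7 ± 1.64, and the host ranges of neighbours among these 4 genes overlapped. Mtor at 6.87 ± 4.24, Tsc1 at 6.28 ± 2.08 and Rictor at 4.56 ± 0.781 CPM per kb overlapped as well. Ddit4 was lowest at 1.71 ± 0.884 CPM per kb, its highest host (3.01) lying just under the lowest host of Rictor (3.04) but above that of Mtor (1.05 in V5). The counts include introns, and per kilobase of the whole gene the order changed: Pik3cd stayed first at 5.12 CPM per kb, Ddit4 moved up to 1.38, and Rptor, the longest of the 9 genes at 297 kb, was last at 0.486.

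The share of cells with a count was high for some long genes that B cells are not known to express. Cntnap2, a neuronal gene spanning 2245 kb, had at least 1 count in 92.0% of cells. Cftr, an epithelial chloride channel gene of 152 kb, had one in 79.6%. The source of these counts was not tested. A bound of 10 CPM per cell lowered Cftr to 2.67% of cells, while Cntnap2 stayed at 37.8%. Under that bound Pik3cd was found in 53.4% of cells (340 cells; exact 95% interval 49.4 to 57.3%), Rptor in 32.7%, Akt2 in 30.6%, Tsc2 in 26.4%, Rictor in 22.6%, Tsc1 in 21.5%, Mtor in 19.3%, Akt1 in 17.0% and Ddit4 in 5.02%. Single and double counts made up 25.4% of the positive cells of Mtor, 23.6% of those of Tsc1 and 20.5% of those of Rptor, against 8.88% of those of Pik3cd. Per kilobase of gene span all 9 genes lay above the 30 genes of other tissues, whose median was 0.0276 and whose highest value was 0.141 CPM per kb (Gfap). Counts from SMART-Seq2 are amplified reads, so these intervals cover counting error only.

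**Figure D2:**
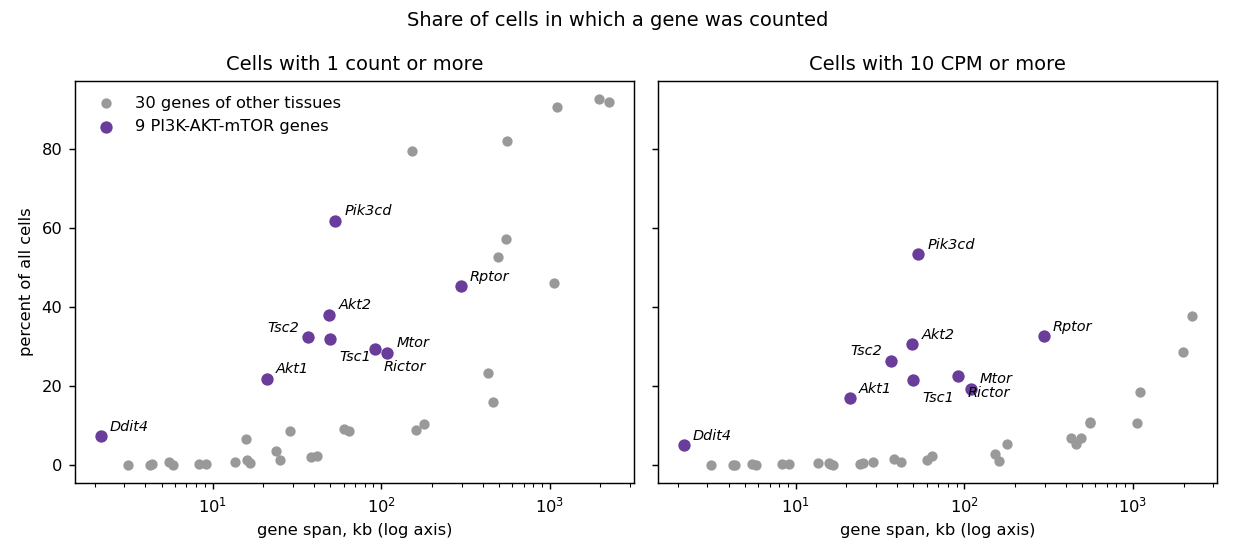
Percent of the 637 cells in which a gene was counted (y axis) against gene span in kb (x axis, log axis), for the 9 pathway genes (purple) and 30 genes of other tissues (grey), with 1 count or more on the left and 10 CPM or more on the right. On the left, grey genes above 100 kb reach 92.6% of cells, and on the right all 9 purple genes lie above the grey genes of like span.

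Most cells held counts of only a few of the 9 genes. At 10 CPM or more, 47 cells (7.38%) held none, 143 held 1, 191 held 2, 137 held 3 and 85 held 4, while 26 held 5, 7 held 6 and 1 held 7. No cell held 8 or 9, which allows a share of up to 0.471% of cells. The mean per host was 2.23 ± 0.0826 genes per cell in acalabrutinib-treated (SD, n = 5) and 2.27 ± 0.235 in vehicle-treated hosts (n = 3). The mean over cells differed with depth: in 4 groups of 159 or 160 cells from the shallowest to the deepest it was 1.77, 2.30, 2.23 and 2.84 genes per cell.

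The first comparison asked whether systemic BTK inhibition moved these transcripts. By edgeR's quasi-likelihood test on the summed counts of 5 acalabrutinib-treated and 3 vehicle-treated hosts, with Benjamini-Hochberg adjustment over 18016 genes, 0 of the 9 genes passed an adjusted p of 0.05 (background: 0% of all genes called, 616 genes at an unadjusted p under 0.05, and 105 genes, 0.612%, called by DESeq2, none of the 9 among them). Log2 fold changes ran from -0.24 ± 0.26 (SE) for Tsc2 to 0.52 ± 1.23 for Ddit4. For Pik3cd, the best-measured gene, acalabrutinib-treated hosts averaged 285 ± 21.1 CPM and vehicle-treated hosts 254 ± 19.3 CPM, a log2 fold change of 0.16 ± 0.15 (edgeR adjusted p = 1.0). None of the 9 genes reached an unadjusted p of 0.05, the smallest being 0.30 for Rictor.

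The other pathway genes, 68 in 8 lists for the parts of the route from receptor to targets, were read in the same fit. Of the 65 tested, 0 passed, their median log2 fold change was 0.09 and that of all genes was 0.02. The smallest p-values belonged to Rragd, Mapkap1 and Rps6kb2. Rragd, a GTPase of lysosomal amino acid sensing, was measured at 6.57, 6.34, 8.20, 0.0285 and 9.03 CPM in A7, A8, A10, A11 and A12 and at 0, 0.0472 and 0.0870 CPM in V5, V7 and V9. It was low in all vehicle-treated hosts and in A11, and 4 hosts rose above 6 CPM (edgeR unadjusted p = 0.011, adjusted p = 1.0; DESeq2 adjusted p = 0.0037). Mapkap1, a subunit of mTOR complex 2, had a log2 fold change of 0.77 ± 0.27 and Rps6kb2, an S6 kinase, one of -0.78 ± 0.30 (edgeR adjusted p = 1.0 for each).

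The second comparison set cycling cells against G1 cells of the same host. Cell cycle scores put 248 cells in G1, 241 in S and 148 in G2/M, and 35 cells lay within 0.05 score units of the G1 boundary. Cycling cells were deeper, at a median of 869386 against 687083 counts. By edgeR with the host as a block, 0 of the 9 genes passed (background: 3.72% of 12686 genes called, 312 higher and 160 lower in cycling cells).

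Pik3cd came nearest. In G1 cells it was measured at 245, 387, 393, 324 and 323 CPM in A7, A8, A10, A11 and A12 and at 277, 300.2 and 289 CPM in V5, V7 and V9. In cycling cells the same hosts gave 313, 253, 230, 258, 246, 234, 198 and 271 CPM. Cycling cells were lower in 7 of 8 hosts, A7 being the exception, and the log2 fold change was -0.38 ± 0.13 (edgeR unadjusted p = 0.015, adjusted p = 0.19). In S phase Pik3cd was lower than in G1 in 8 of 8 hosts, at 230 ± 36.8 against 317 ± 51.4 CPM, a log2 fold change of -0.49 ± 0.13 (edgeR adjusted p = 0.087; background 2.61% of 11517 genes called). The share of cells at 10 CPM or more went against these levels, at 49.6% in G1 and 55.8% in cycling cells, so no order was read from it. DESeq2 on the same sums called Pik3cd lower in cycling cells (adjusted p = 0.020; background 16.3% called and 5.45% called lower) and in S phase (adjusted p = 0.0067; background 14.2% called and 6.02% called lower). In G2/M the log2 fold change was -0.22 ± 0.16 (edgeR adjusted p = 0.68; background 3.14% of 10886 genes called by edgeR and 14.7% by DESeq2, Pik3cd not among the latter).

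Akt2 leaned the same way as Pik3cd, with a wider error. It was lower in cycling than in G1 cells in 7 of 8 hosts, at 109 ± 32.8 against 160 ± 48.5 CPM, while A8 went from 71.0 to 181 CPM. The log2 fold change was -0.59 ± 0.28 (edgeR adjusted p = 0.40). Without A8 it was -0.82 (edgeR adjusted p = 0.0497; background 309 of 12654 genes called, 102 of them lower). Leaving out 1 host thus decided which side of the threshold Akt2 fell on. The share of cells at 10 CPM or more was near level, 29.8% in G1 and 31.1% in cycling cells.

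Akt1 and Mtor leaned upward. Mtor averaged 45.7 ± 32.6 CPM in G1 and 80.7 ± 60.4 CPM in cycling cells, a log2 fold change of 1.11 ± 0.72 (edgeR adjusted p = 0.58), and it was higher in 5 of 8 hosts. A10 went from 38.9 to 196 CPM and V7 from 23.1 to 143 CPM, while A8, A11 and V9 were lower in cycling cells. After thinning every cell to 459128 counts, Mtor was counted in 20.8% of G1 and 30.8% of cycling cells, higher in 6 of 8 hosts. Akt1 averaged 39.5 ± 22.9 and 53.1 ± 17.2 CPM, a log2 fold change of 0.64 ± 0.76 (edgeR adjusted p = 0.83). It was counted in 15.7% and 25.2% of thinned cells, higher in 5 of 8 hosts. Thinned shares also rose where the fold change was negative, from 38.4% to 45.9% for Rptor (6 of 8 hosts) and from 32.9% to 37.5% for Akt2. They rose for Tsc1, Rictor and Pik3cd as well and fell for Tsc2 and Ddit4, so no order was read from them. These shares were given no test. In CPM Akt1 was higher in cycling cells in 6 of 8 hosts, and neither Mtor nor Akt1 passed in the fit with the host as a block.

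The remaining members had log2 fold changes in cycling cells of 0.20 ± 0.34 for Tsc1, -0.27 ± 0.33 for Rptor, -0.33 ± 0.22 for Tsc2, -0.43 ± 0.29 for Rictor and -1.09 ± 0.74 for Ddit4, all with an edgeR adjusted p of 0.61 or more. The median of the 9 genes was -0.33 and that of all genes was 0.14. For G2/M against G1 the median of the 9 genes was -0.41 and that of all genes was -0.12.

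**Figure D3:**
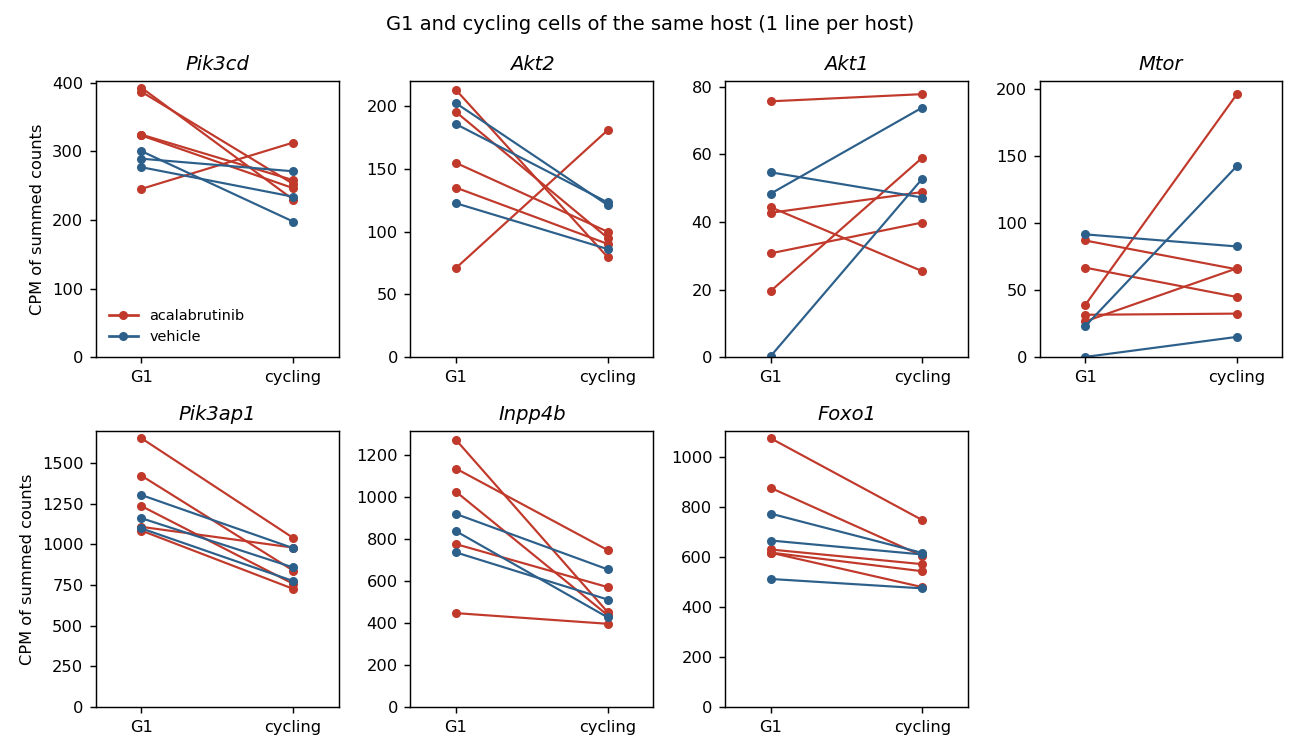
CPM of the summed counts (y axis, starting at 0) of G1 and cycling cells of the same host, 1 line per host, red for acalabrutinib and blue for vehicle. Pik3cd and Akt2 fall in 7 of 8 hosts and did not pass the edgeR test, Akt1 and Mtor cross in both directions, and Pik3ap1, Inpp4b and Foxo1 fall in all 8 hosts.

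Among the other genes of the pathway, a small set did pass. Of 60 other pathway genes tested, 3 were lower in cycling cells (5.0%; background 1.26% lower) and 0 were higher (background 2.46%). Pik3ap1, the adaptor BCAP that links the B cell receptor to PI3K, fell from 1258 ± 197 to 869 ± 117 CPM (SD, n = 8), a log2 fold change of -0.57 ± 0.07 (edgeR adjusted p = 0.0020). The log2 fold changes were -0.78 ± 0.15 for Inpp4b, a phosphatase that removes a phosphate from a PI3K product (adjusted p = 0.017), and -0.33 ± 0.08 for Foxo1, the transcription factor that AKT excludes from the nucleus (adjusted p = 0.041). In CPM all 3 were lower in cycling cells in 8 of 8 hosts. The share of thinned cells with a count did not follow the CPM: it was higher in cycling cells in 8 of 8 hosts for Pik3ap1, in 4 of 8 for Foxo1 and in 3 of 8 for Inpp4b, so no order was read from it. The call of Foxo1 was lost when any 1 host was left out, and that of Inpp4b without V9 (adjusted p = 0.053), and cycling calls by Mki67 and Top2a left none of the 3 past the threshold, with log2 fold changes of -0.49 for Pik3ap1, -0.67 for Inpp4b and -0.26 for Foxo1 (adjusted p of 0.050, 0.066 and 0.42).

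The phases differed in which of these passed. In S phase Foxo1 and Pik3ap1 fell, with log2 fold changes of -0.69 ± 0.12 and -0.54 ± 0.10 (2 of 59 tested, 3.39%; background 0.651% lower). In G2/M Inpp4b and Pik3ap1 fell, with log2 fold changes of -1.20 ± 0.18 and -0.63 ± 0.09 (2 of 56 tested, 3.57%; background 1.09% lower). Foxo1 had a log2 fold change of 0.07 ± 0.09 in G2/M and Inpp4b one of -0.54 ± 0.19 in S phase, and neither passed by edgeR, while DESeq2 called Inpp4b lower in S phase (adjusted p = 0.018). The difference between the phases was not tested, and Pik3ap1 missed the threshold in S phase without A11, A12 or V9 (adjusted p of 0.051 to 0.052). B cell and LZ markers moved with the cell cycle as well: Pax5, Cd79b, Cd74 and Cd79a fell in cycling cells (4 of 4 tested), as did Fcer2a, Cd83 and Cd86 (3 of 4 LZ markers). Polh, from a list of 3 dark zone markers, rose by 2.74 on the log2 scale. The fold changes of Cxcr4 and Ccnb2 from that list are not given here. The part of zone in these differences was not tested.

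**Figure D4:**
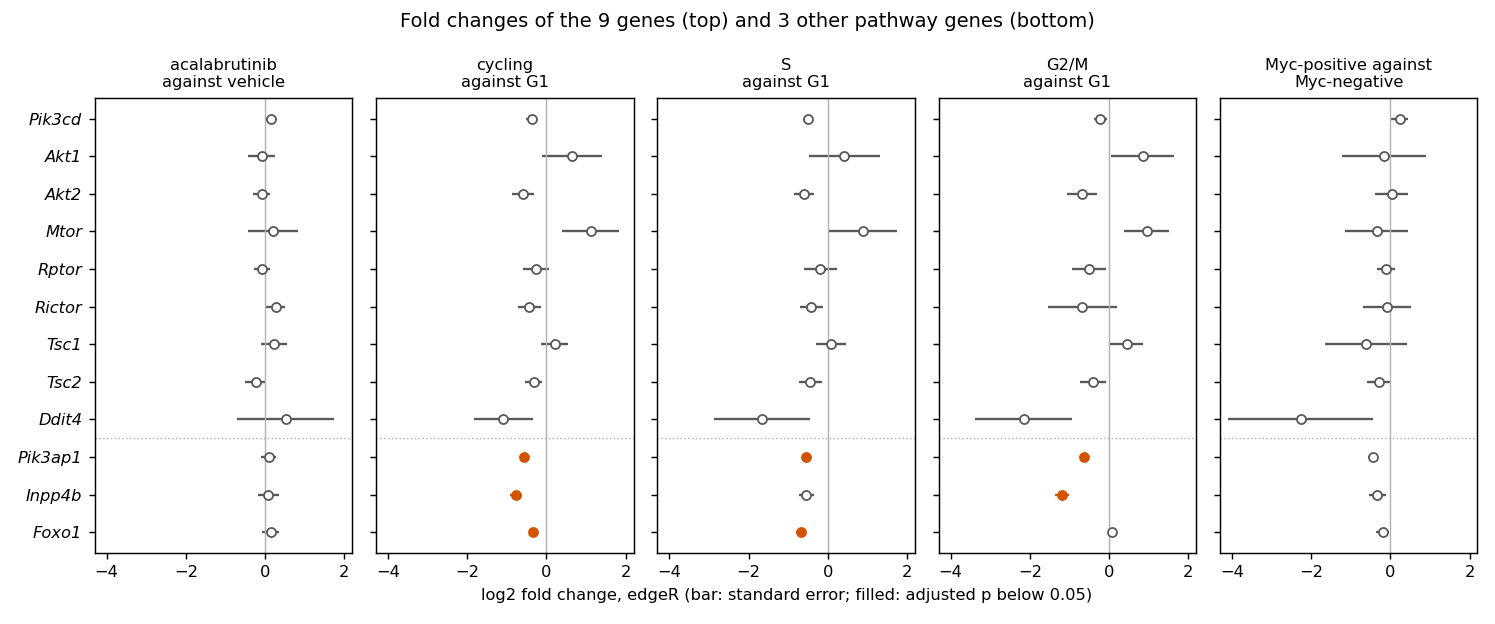
Log2 fold changes (x axis) by edgeR with standard errors as bars for the 9 genes above the dotted line and Pik3ap1, Inpp4b and Foxo1 below it (y axis), in 5 comparisons; filled points passed an adjusted p of 0.05. None of the 9 genes is filled, and filled points lie between -0.33 and -1.20 in the cycling, S and G2/M panels.

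The third comparison used Myc, the transcription factor that marks LZ cells selected by T cell help. A Myc count was found in 177 of 637 cells (27.8%), from 10.9% of cells in the lowest to 43.9% in the highest host, and 15 of the 177 cells were under 10 CPM. Myc-positive cells were deeper, at a median of 890495 against 751578 counts, and 70.6% of them against 57.4% of Myc-negative cells were in S or G2/M. By edgeR with the host as a block, 0 of the 9 genes passed (background: 0.0551% of 12715 genes called; DESeq2 called 9.4%, none of the 9 among them).

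Pik3cd averaged 334 ± 168 CPM in Myc-positive and 262 ± 37.8 CPM in Myc-negative cells (SD, n = 8), a log2 fold change of 0.24 ± 0.22 (edgeR adjusted p = 0.80), and it was higher in 5 of 8 hosts. A7 stood apart, at 730 CPM in its 5 Myc-positive cells, and without A7 the log2 fold change was 0.046. Without A10 it was 0.36. Akt2 was counted at 10 CPM or more in 38.4% of Myc-positive and 27.6% of Myc-negative cells, Mtor in 26% and 16.7%, and Rptor in 39.5% and 30%. The shares of Pik3cd, Akt1, Rictor and Tsc1 were higher by less. Those of Tsc2 (25.4% against 26.7%) and Ddit4 (3.39% against 5.65%) were lower. By host, the share at 10 CPM or more was higher in Myc-positive cells in 7 of 8 hosts for Rptor, 6 for Akt2 and 5 for Mtor. The share of thinned cells with at least 1 count was 45.6% against 42.0% for Rptor. It was 42.7% against 32.8% for Akt2 and 31.6% against 25.1% for Mtor. The shares were not tested. That thinned share was higher in Myc-positive cells in 4 of 8 hosts for Rptor and Akt2 and in 5 for Mtor. The fitted log2 fold changes were small beside their errors, 0.04 ± 0.42 for Akt2, -0.35 ± 0.81 for Mtor and -0.11 ± 0.22 for Rptor. In host CPM Akt2 was higher in Myc-positive cells in 6 of 8 hosts, Mtor in 4 and Rptor in 2, and the host mean of Mtor, 77.3 against 63.8 CPM, had the opposite sign to its fitted value. The other members ran from -2.26 ± 1.83 for Ddit4 to -0.09 ± 0.61 for Rictor, beside a median of -0.42 over all genes. None of the 61 other pathway genes tested passed. Those with the smallest p-values were Pik3ap1 (-0.43 ± 0.13), Pik3ip1, an inhibitor of PI3K (-6.19 ± 2.40), and Ulk1, an autophagy kinase that mTOR complex 1 inhibits (-4.59 ± 2.2), with edgeR adjusted p-values of 0.36, 0.52 and 0.63. Pik3ip1 ranged from 3.68 CPM in V7 to 36.2 in A10, and Ulk1 from 0 CPM in A10 to 36.9 in V7. The second highest host was at 11.4 CPM for Pik3ip1 (A12) and at 14.2 CPM for Ulk1 (A11). The part of low levels in their fold changes was not tested.

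Splitting the Myc comparison by the cell cycle left 5 hosts among cycling and 4 among G1 cells, and 0 of the 9 genes passed by edgeR in either (background: 0% of all genes called in both, with 617 and 389 genes at an unadjusted p under 0.05; DESeq2 called 5.31% and 11.1%). Ddit4 was the only one of the 9 called by DESeq2, in G1 cells. None of the 52 Myc-positive G1 cells held a Ddit4 count, whereas 22 of 196 Myc-negative G1 cells (11.2%) did. If the pooled cells were independent, a count of 0 would allow a share of up to 5.77%. Cells of a host are not independent, and over all classes the share ranged from 1.75% in A11 to 11.1% in A7. The bound is therefore not set against the 11.2%. Among cycling cells the shares were 6.40% of 125 Myc-positive and 6.06% of 264 Myc-negative cells. The 4 hosts with enough cells were A8, A10, A11 and V9. In that order they were measured at 5.84, 5.43, 7.86 and 1.21 CPM in Myc-negative G1 cells. In Myc-positive G1 cells each was at 0 CPM. Over all classes, only 2 of the 114 cells of A11 held a Ddit4 count. The edgeR unadjusted p of 0.0042 became an adjusted p of 1.0, while DESeq2 gave an adjusted p of 5.4e-06 (background 8.75% called lower). With 5, 9, 11 and 16 Myc-positive G1 cells in these hosts, a count of 0 in each says little, and no fold is given.

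Programs known to induce Ddit4 were described next to it. Of the genes of the ATF4 stress, hypoxia, glucocorticoid and p53 lists, 0 passed by edgeR in the treatment, cycling, G2/M and Myc comparisons. In that order edgeR called 0%, 3.72%, 3.14% and 0.0551% of all genes, so a count of 0 in short lists says little. In S phase only Ldha, the lactate dehydrogenase subunit of the hypoxia list, was higher, with a log2 fold change of 0.50 ± 0.10 (adjusted p = 0.029; background 1.96% higher). Ddit4 itself had a log2 fold change of -1.66 ± 1.22 in S phase (edgeR adjusted p = 0.69).

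The treatment comparison was repeated within the cell cycle classes, and the treatment effect was compared between classes by an interaction term. None of the 9 genes passed in any of these fits by edgeR or DESeq2 (edgeR background: 0% of all genes called in each; DESeq2 background: 0.863% for treatment in G1 cells, 0.345% in cycling cells, 3.15% for the interaction with cycling and 1.78% for that with Myc). Within G1 cells the estimates ran from -0.72 ± 0.39 for Rptor to 0.69 ± 0.38 for Rictor, and within cycling cells from -0.21 ± 0.40 for Akt1 to 0.50 ± 0.31 for Rptor. V7 was the high host for Rptor in G1 cells, at 376 CPM. Rptor had opposite signs in the 2 classes, and its interaction with cycling was 1.02 ± 0.64 on the log2 scale (edgeR unadjusted p = 0.15, adjusted p = 1.0). The interaction with cycling was larger in size for Mtor, at -2.17 ± 1.49 (edgeR unadjusted p = 0.18, adjusted p = 1.0; DESeq2 unadjusted p = 0.043, adjusted p = 0.35). The within-class treatment estimates of Mtor were 0.43 ± 1.21 in G1 and 0.0045 ± 0.71 in cycling cells. They lay far closer together than the size of its interaction. The lowest host for Mtor was at 0.206 CPM in G1 cells, and its part in the interaction was not tested. The interaction with Myc ran from -3.48 ± 3.84 for Ddit4 to 1.70 ± 1.15 for Rictor.

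Co-expression across cells was weak. Over the 36 pairs of the 9 genes, the mean over 8 hosts of Spearman's rho between CPM values within a host ran from -0.11 to 0.09, with a median of 0.02, and 25 pairs were positive. Partners in a complex were near 0: the mean rho was 0.01 for Tsc1 and Tsc2, -0.03 for Mtor and Rptor, and 0.02 for Mtor and Rictor. The highest value belonged to Akt2 and Tsc1 (0.09, from -0.05 to 0.22 over hosts) and the lowest to Mtor and Tsc2 (-0.11, from -0.27 to 0.02). At 10 CPM or more, Mtor and Tsc2 were found together in 22 cells (3.45%), and the product of their shares within hosts was 4.85%. For Pik3cd and Rictor the corresponding values were 87 cells (13.7%) and 12.1%. Cells of a host share library preparation and differ in depth, and counts are sparse, so these values are a description.

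**Figure D5:**
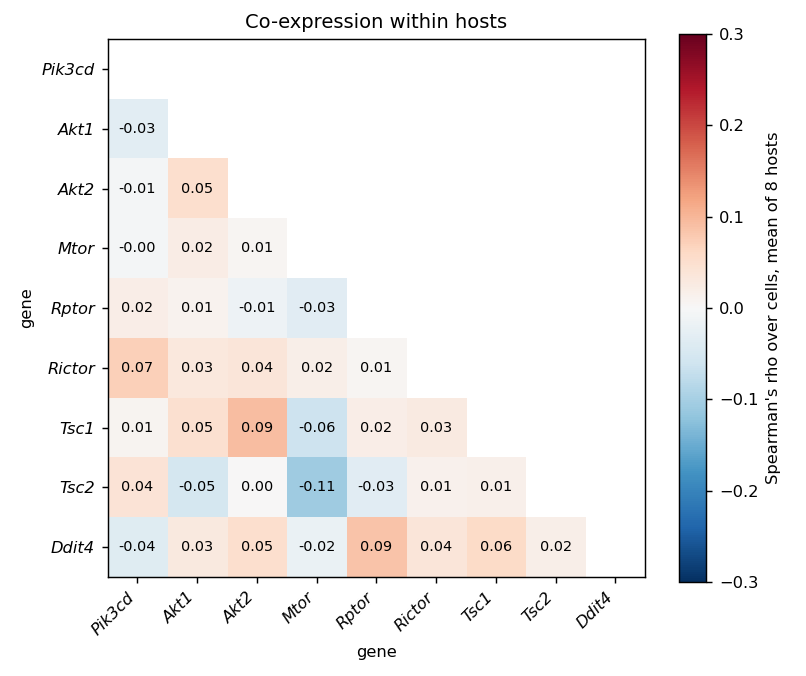
Spearman's rho between the CPM values of each pair of the 9 genes (both axes) across the cells of a host, averaged over 8 hosts, with the color scale running from -0.3 to 0.3. All 36 values lie between -0.11 and 0.09.

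Genes most like each member were sought among 5697 genes counted in at least 25% of cells, by the mean within-host rho over thinned cells. The highest values were 0.24 for Rptor with 4833420G17Rik, 0.23 for Rptor with Cox5a, and 0.22 for Rptor with Pa2g4. The leading partner was Tpd52 for Pik3cd (0.18), Ddx19a for Akt1 (0.21), Larp4b for Akt2 (0.18), Rad54l for Mtor (0.19), Ddx6 for Rictor (0.17), Ruvbl1 for Tsc1 (0.18), Blvrb for Tsc2 (0.18) and Gm29571 for Ddit4 (0.21). None of the 27 leading partners was another of the 9 genes or of the other pathway genes. Akt1 and Ddit4 were counted in fewer than 25% of cells, so neither could be named as a partner. The 9 genes and the 68 other pathway genes are few beside 5697, so nothing is read from this absence. These are the highest of many weak values and carry no test.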

How the data were processed

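The deposited values are raw counts per gene and cell. STARsolo 2.7.10a was run by the authors against the GRCm39 genome (release 107), with intronic as well as exonic reads kept and duplicates collapsed where positions were identical. Of nonzero entries, 28.8% were 1 or 2 counts (median 47). The submitters' notes also list GRCm38. The cell filter of the study (mitochondrial share, number of genes) left all 637 cells: none exceeded 2.68% mitochondrial counts or fell under 1801 genes. No doublet caller was run on these sorted single cells.

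Here counts were summed per host, or per host and class with at least 5 cells of each class, and tested with edgeR 4.0.16 (quasi-likelihood, TMM, filterByExpr, host as a block between classes; Benjamini-Hochberg, adjusted p below 0.05). SE is the absolute log2 fold change over the square root of F. Hosts are separate mice, the cells come from pooled experiments not named per host, and the host block reflects cells of the same mouse. Phase was scored with Seurat 5.3.0 (43 S and 54 G2/M genes), and Myc-positive means at least 1 Myc count. Levels per length used GENCODE M21. Alternatives were DESeq2 1.42.0, no filter, cells thinned to 459128 counts (64 shallower cells left out), leaving out each host, no host block, other class rules and at least 10 cells per class. The code was tested on simulated data, with changes of known fold put into randomly chosen genes. Of 1.5-, 2- and 4-fold changes it recovered 0, 3.08 and 27.4% for treatment. The shares were 0, 7.58 and 24.2% for cycling and 0, 0 and 16.7% for Myc. A gene that did not pass may therefore still differ. These rates are over randomly chosen genes, and how far a given gene may differ depends on its own standard error. For treatment this error was 0.15 for Pik3cd and 1.23 for Ddit4 on the log2 scale. The members and gene lists were chosen with earlier results of these data known. Named were the 9 members, up to 8 list genes past the threshold per comparison (otherwise the 3 with the smallest p), and 3 genes most like each member. Protein and promoter sequences were not used here. Some genes of the lists are not reported here and were left out of their counts.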

Additional observations from a re-analysis of the deposited data

Results flagged for a closer look

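Of 72 sets of host values of the 9 genes examined, 9 held 1 host far from the others by Dixon's test at 95%, which chance flags in about 1 of 20 sets. Among acalabrutinib-treated hosts, A8 was high for Pik3cd at 322 CPM. The share of cells at 10 CPM or more stood apart in A12 for Akt1 (22.2%) and in A10 for Akt2 (32.7%) and Rictor (19.2%). Within classes of cells, A7 was high for Pik3cd in Myc-positive cells (730 CPM in 5 cells) and for Tsc2 in S phase (231 CPM). A8 was high for Akt2 in G2/M (270.2 CPM), V7 for Rptor in G1 (376 CPM) and A11 for Ddit4 in S phase (8.07 CPM). Over all classes, A11 held a Ddit4 count in only 2 of its 114 cells.

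Within cycling cells, Pik3cd was lower in Myc-positive than in Myc-negative cells in each of 3 acalabrutinib-treated hosts (mean difference -0.26 in log2(CPM + 1)) and higher in each of 2 vehicle-treated hosts (0.29). This difference between treatments was not tested. It was picked by a search over the members and the class comparisons for opposite signs. With 3 and 2 hosts such a pattern can arise by chance.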

How the results depend on the processing

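With DESeq2 in place of edgeR, genes past the threshold numbered 105 for treatment, 2062 for cycling, 1632 for S phase, 1604 for G2/M, 1195 for Myc, 672 for Myc in cycling cells, 1114 for Myc in G1 cells, 109 and 52 for treatment in G1 and in cycling cells, and 400 and 226 for the interactions with cycling and with Myc. Of the 9 genes, 1 was called by DESeq2 in each of 3 comparisons (cycling, S phase and Myc in G1 cells). Without a filter the counts were 270 for cycling, 206 for G2/M, 1 for Myc, and 1 and 2 for Myc in cycling and in G1 cells. Without the host block they were 23 for Myc, 4 for Myc in cycling and 1 for Myc in G1 cells. With at least 10 cells per class 0 genes passed for Myc, and with Myc called at 10 CPM 1 gene passed in cycling and 1 in G1 cells. Leaving out each host gave 289 to 379 genes for cycling, 200 to 250 for S phase, 201 to 249 for G2/M and 0 to 7 for Myc, and 0 to 1 of the 9 genes for cycling (Akt2, without A8). The count fell by over 1.5 times for cycling without A12, A8, V7 or V9 (310, 309, 311 and 289), for S phase without V9 (200), for G2/M without A7, V7 or V9 (225, 213 and 201) and for Myc without any host but A7. Fewer hosts entered these fits, and other causes were not tested.

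Signs reversed for Pik3cd with Myc in thinned cells (-0.022), Akt2 with Myc without a filter (-0.031), Mtor and Rictor with Myc without the block (0.26 and 0.32), Tsc1 in S phase without the block (-0.10), Tsc1 with Myc in thinned cells (0.042), without the block (0.073) and with 10 cells (0.40), and Foxo1 in G2/M in thinned cells (-0.088). Without 1 host, log2 fold changes for treatment ranged from -0.32 to 0.10 for Akt1, -0.23 to 0.065 for Akt2, -0.29 to 0.67 for Mtor, -0.26 to 0.13 for Rptor and -0.45 to 0.10 for Tsc2. For Myc they ranged from -0.38 to 0.30 for Akt1, -0.073 to 0.37 for Akt2, -0.54 to 0.076 for Mtor and -0.41 to 0.24 for Rictor. For Rptor they ranged from -0.38 to 0.029 in cycling cells, and in S phase they ranged from -0.067 to 0.75 for Akt1, -0.31 to 0.14 for Rptor and -0.073 to 0.28 for Tsc1. None of these reversed values passed the threshold. No experiment term could be fitted, because the labels do not tie hosts to experiments.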
